A study of Macaca fascicularis with 4 samples.

Results

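Of 9 imprinted growth genes sought here, 8, namely DLK1, PEG3, PEG10, MEST, CDKN1C, NNAT, PLAGL1 and GRB10, were measured in single-cell libraries of cynomolgus monkey (Macaca fascicularis) embryos. The members were taken by symbol from the gene list of each library, 8 of 26222 named rows. IGF2, the ninth, is not analysed here. The 4 libraries came from 1 stage each, and the labels name no treatment or genetic background. They are named E24, E28, E31 and E37 for days of embryonic age, and were staged on the Carnegie scale as CS11, CS13, CS14 and CS18. The E24 tissue was most of the trunk, without yolk sac, amnion, heart, structures anterior to the heart and the tail-end growth zone. At E28 and E31 the same dissection gave the urogenital ridge with the mesonephros, the embryonic kidney, coelomic epithelium and part of the nearby mesentery. At E37 most mesonephros and mesentery had been trimmed away, which left mainly the gonadal ridge with a piece of mesonephros, the putative adrenal and some mesentery. The E24 title names 2 animals, whose cells are not told apart by their barcodes, and each of the other titles names 1. Stage and dissection therefore change together except between E28 and E31, and their parts in any difference across the other stages cannot be told apart.

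Imprinted genes are expressed mainly from the copy inherited from 1 parent, and many of them set the size of the fetus and placenta. Those expressed from the paternal copy, among them DLK1, PEG3, PEG10, MEST, NNAT and PLAGL1, mostly favour growth or keep progenitors undifferentiated, while CDKN1C, expressed mainly from the maternal copy, and GRB10, whose imprinting differs between tissues and species, mostly restrain growth. DLK1 is a surface and shed protein related to Notch ligands. PEG3 and PLAGL1 are zinc-finger proteins that act in the nucleus. PEG10 derives from a retrotransposon and is needed for the placenta, and MEST is a membrane protein of the hydrolase fold found in embryonic mesoderm. NNAT is a small membrane proteolipid of neural and endocrine cells. CDKN1C, also called p57, inhibits cyclin-dependent kinases. GRB10 is an adaptor that binds the insulin and IGF1 receptors and dampens their signal. The counts do not separate the parental copies, so every value below is the sum of both.

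The libraries held 10639, 5028, 6661 and 5298 cell barcodes at E24, E28, E31 and E37, with 115332663, 62477350, 72233442 and 40243286 unique molecular identifiers (UMIs, each standing for 1 captured transcript). Median UMIs per barcode were 9990, 11391, 9766 and 6672.5. Levels are UMIs of a gene per 1000000 UMIs of the same barcodes (CPM), and a limit of 3 UMIs corresponds to 0.0260, 0.0480, 0.0415 and 0.0745 CPM in the whole libraries. With 1 library per stage there is no replicate, so no test was made. All 95% intervals cover counting error only and say nothing of the spread between embryos. A difference was called when it reached 2-fold with at least 50 UMIs in the group with the higher level. Of the barcode sequences, 370 occurred in more than 1 library.

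DLK1 was the member whose level differed most between stages. It was at 216 CPM at E24 (95% interval 213 to 218.5), 805 at E28 (798 to 812), 823 at E31 (817 to 829.9) and 1583 at E37 (1571 to 1595). The order was E24 lowest, E28 and E31 close together with intervals that did not overlap, and E37 highest. DLK1 UMIs were found in 36.2%, 57.2%, 54.9% and 71.8% of barcodes in stage order. At an equal depth of 2000 UMIs per barcode the expected shares were 17.7%, 35.4%, 35.1% and 58.5%, so the order of E24, E37 and the pair between them did not change with depth. At equal depth, 7.50% of barcodes with red-cell markers at E24 and 5.09% at E37 also held a DLK1 UMI. Whether these UMIs came from free RNA, from droplets shared by cells or from the red cells themselves was not tested. DLK1 was concentrated in few barcodes, since the 10% with the most DLK1 UMIs held 77.3% of them at E24, 65.2% at E28, 67.0% at E31 and 48.8% at E37. A single E24 barcode held 312 DLK1 UMIs.

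CDKN1C and PLAGL1 were likewise lowest at E24 and highest at E37. CDKN1C was at 74.3 CPM at E24, 193 at E28, 210.3 at E31 and 301 at E37. Its share of barcodes with a UMI was 35.1% at E24 and then 69.7%, 68.1% and 69.9%, and at equal depth it was 11.1%, 28.9%, 30.7% and 39.4%. The unthinned share was thus nearly level after E28 while the CPM and the equal-depth share were higher in each later library. PLAGL1 was at 53.1, 95.1, 92.8 and 145 CPM in stage order. PEG10 was at 230.5, 565, 462 and 613 CPM, lowest at E24 with a lower value at E31 than at E28. PEG3 was at 168, 269, 291 and 245 CPM, so that E31 was its highest stage.

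MEST and NNAT were the members with their highest level at E24. MEST was at 1394, 1000.2, 1099 and 1008 CPM in stage order and was found in 96.7%, 93.8%, 94.1% and 90.5% of barcodes. The E28 and E37 levels of MEST could not be told apart, since their intervals of 992 to 1008 and 999 to 1018 overlapped. NNAT was at 115 CPM at E24, 54.7 at E28, 64.7 at E31 and 37.8 at E37, and its share of barcodes was 55.6%, 39.1%, 40.2% and 20.0%. GRB10 stayed within a narrow band of 11.03, 13.8, 12.6 and 14.5 CPM, and the intervals of its 3 later stages overlapped one another at their edges. It was seen in 10.3%, 13.7%, 11.6% and 9.40% of barcodes.

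**Figure D1:**
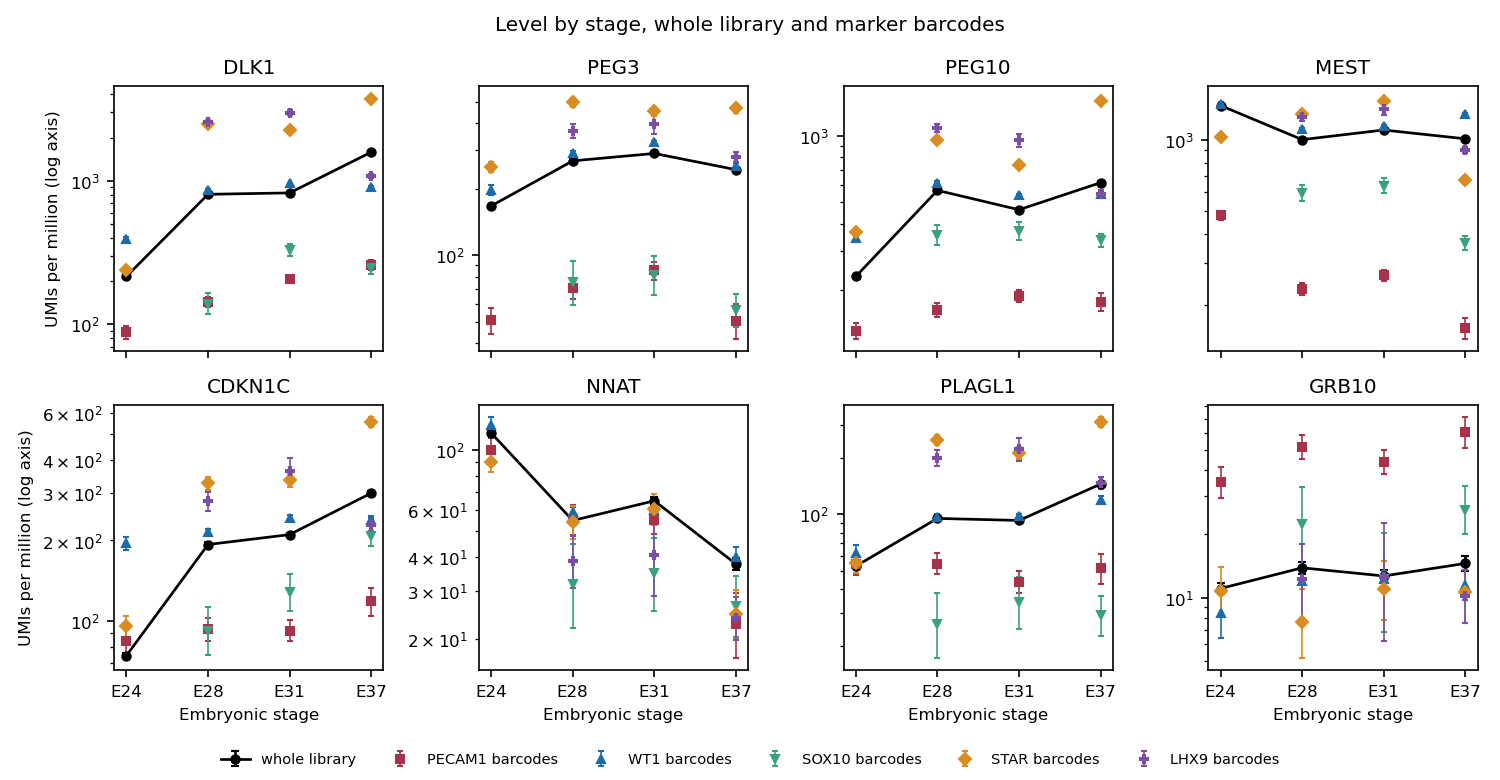
Level of each gene in CPM (log axis) by stage, over the whole library (black line) and in barcodes with a UMI of PECAM1, WT1, SOX10, STAR or LHX9 (coloured symbols; groups under 50 barcodes are not drawn). Bars are exact Poisson 95% intervals for counting error. DLK1 over the whole library goes from 216 at E24 to 1583 at E37, and GRB10 in PECAM1 barcodes lies above its whole-library level at all 4 stages.

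Between E24 and E28 the tissue changed from trunk to urogenital ridge, and 4 of 8 members passed 2-fold. DLK1 was 3.73-fold higher at E28 (95% interval 3.68 to 3.79), CDKN1C 2.60-fold and PEG10 2.45-fold. NNAT was 2.11-fold lower. PLAGL1 (1.79-fold), PEG3 (1.60-fold) and GRB10 (1.25-fold) were higher at E28 by less than 2-fold, and MEST had a ratio of 0.717. Over all 15262 genes with enough UMIs, 15.5% were 2-fold or more higher at E28 and 6.23% lower. The median log2 ratio of the 8 members was 0.76, against 0.22 over all genes tested. When both libraries were scaled to the median gene in place of the total, 4 of 8 members still passed 2-fold.

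E28 and E31 shared the same dissection. None of 8 members passed 2-fold between them, and the member log2 ratios lay between -0.29 for PEG10 and 0.24 for NNAT. Over all genes, 3.81% passed 2-fold in either direction. The neighbouring comparisons share the E28 and the E31 library, so they are not independent of one another.

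Between E31 and E37 no member passed 2-fold either, while 16.6% of all genes did in 1 direction or the other. DLK1 came nearest, at 1.92-fold higher (1.90 to 1.94), followed by PLAGL1 at 1.56-fold, CDKN1C at 1.43-fold and PEG10 at 1.33-fold. NNAT was 1.71-fold lower. The putative adrenal is part of the E37 tissue. Without the 110 barcodes with sympathoadrenal markers the DLK1 log2 ratio was 0.87, against 0.94 with them, and the NNAT log2 ratio was -0.97, against -0.78. Without the barcodes that held STAR, DLK1 was also at 0.87. Each set was left out on its own, and leaving out both together was not tested. A looser sympathoadrenal set, for which 2 markers sufficed, held 238 barcodes at E37, with DLK1 at 5207 CPM. The ratio without that larger set was not tested either. Cells of the same types that lacked these marker UMIs stayed in, and the part of the adrenal in the ratio was not tested.

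Other imprinted genes and genes of insulin-like growth factor (IGF) signalling were described beside the members from lists made for the purpose. Of 35 other imprinted genes, 30 were in the table and 23 had enough UMIs in the comparison of E28 with E24. Of these, 4 were 2-fold or more higher at E28: TFPI2 (3.84-fold, a protease inhibitor of the placenta), MKRN3 (3.69-fold), PHLDA2 (3.08-fold, a restrainer of placental growth that lies near CDKN1C) and PPP1R9A (2.07-fold, a near neighbour of PEG10). DLX5, a homeobox gene of limb and face, was 8.80-fold lower. Only DLX5 of 22 passed 2-fold between E28 and E31 (2.59-fold higher). Between E31 and E37, DIO3 (4.75-fold), DLX5 (2.71-fold) and NDN (2.57-fold) were higher and PHLDA2 was 2.64-fold lower, of 22.

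Of the 18 IGF genes, 17 were measured in each stage comparison. At E28 against E24, 6 were higher, led by PAPPA2 (17.6-fold, a protease that frees IGF from its binding proteins), GRB14 (5.64-fold, a relative of GRB10), IGF1 (3.40-fold) and IGFBP4 (3.10-fold), and the binding protein IGFBP5 was 2.72-fold lower. At E31 against E28 IGFBP3 (71.9 against 151 CPM) and PAPPA2 (9.69 against 19.4) were lower. At E37 against E31 the binding proteins IGFBP3 (7.96-fold) and IGFBP5 (4.42-fold) were higher. PAPPA2 was at 0.745 CPM at E37 against 9.69 at E31, GRB14 was 2.50-fold lower and IRS2, a docking protein of the insulin receptor, 2.06-fold lower. GRB10 passed 2-fold in none of these 3 comparisons.

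Barcodes with a UMI of 1 of 5 cell-type genes were then set against all other barcodes of the same library. PECAM1 is an adhesion molecule of endothelium, WT1 a transcription factor of coelomic epithelium, podocytes and gonad, SOX10 a factor of neural crest, STAR the cholesterol carrier of steroid-producing cells, and LHX9 a factor of the gonadal ridge. The groups held 334, 291, 383 and 230 barcodes for PECAM1 in stage order, 527, 2960, 3507 and 1757 for WT1, and 433, 281, 325 and 381 for STAR. SOX10 marked 62, 98 and 244 barcodes at E28, E31 and E37, and LHX9 144, 67 and 619. At E24 SOX10 (41 barcodes) and LHX9 (15) fell under the 50 required and were not analysed. Marked barcodes had a higher median depth than the rest in each case, for example 9302 against 6575 UMIs for STAR at E37. Since 50 UMIs are asked of the side with the higher level, a gene higher in a small group passes less easily than a gene lower in it.

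**Figure D2:**
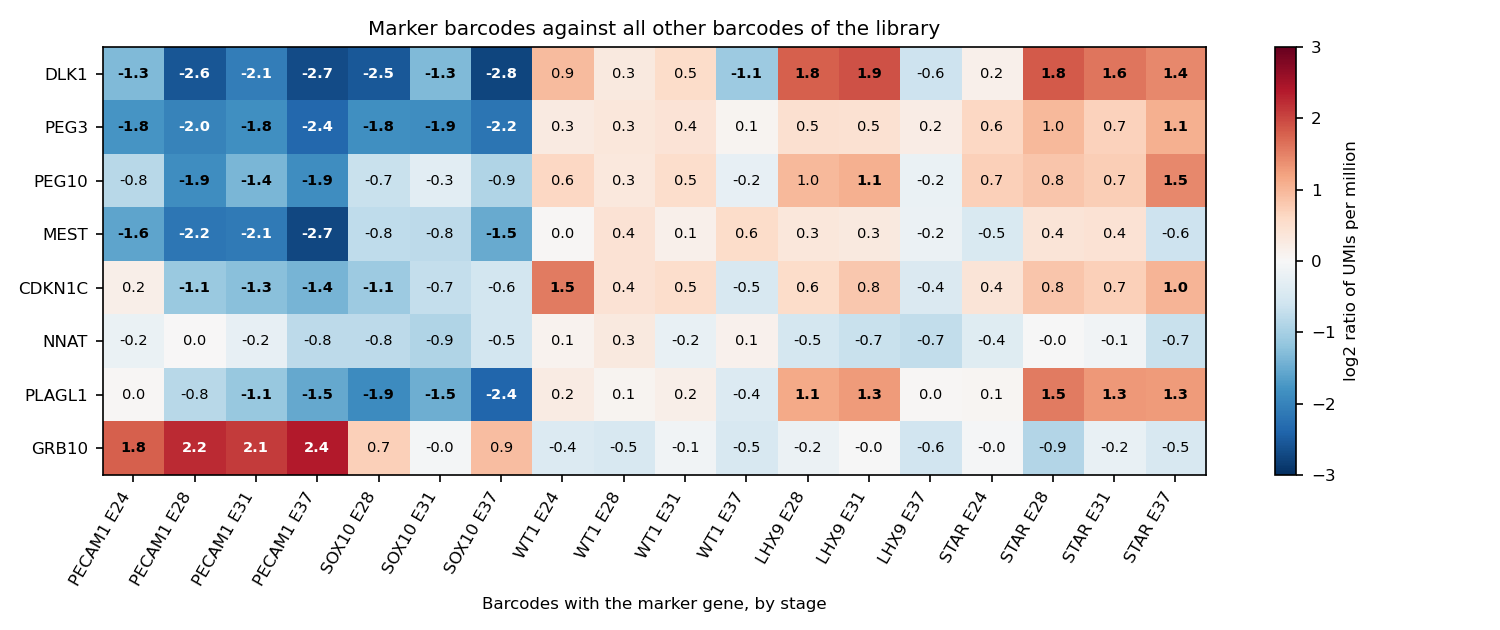
log2 ratio of each gene's CPM in barcodes with the marker gene over all other barcodes of the same library, by marker and stage. Bold figures are 2-fold or more. GRB10 is red and DLK1, PEG3 and MEST are blue in all 4 PECAM1 columns, and DLK1 and PLAGL1 are red in the STAR columns from E28 to E37.

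GRB10 was higher in PECAM1 barcodes at all 4 stages, and it was the only member that passed 2-fold upward there. It was at 35.1 CPM in PECAM1 barcodes against 10.1 in the rest at E24, 51.4 against 10.97 at E28, 43.8 against 10.2 at E31 and 60.2 against 11.7 at E37. The ratios were 3.46, 4.68, 4.28 and 5.17. Over all genes, 6.26%, 6.77%, 7.08% and 6.33% were 2-fold or more higher in PECAM1 barcodes in stage order. PECAM1 barcodes held 26.2% of all GRB10 UMIs at E28 and 24.2% at E37, with 7.04% and 5.82% of all UMIs. The other 4 endothelial markers, among them CDH5 and KDR, were higher in these barcodes at all stages. Of 5 macrophage markers, 4 were higher too, at a summed level of 184 against 23.4 CPM at E24 and 547 against 129 at E37. GRB10 itself was at 3.14 CPM (2 UMIs) in the barcodes with macrophage markers at E31 and at 4.55 CPM (3 UMIs) at E37.

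DLK1, PEG3 and MEST were lower in PECAM1 barcodes at all 4 stages. DLK1 was at 88.0 against 221 CPM at E24, 144 against 855 at E28, 206 against 871 at E31 and 259.7 against 1665 at E37, ratios of 0.399, 0.168, 0.236 and 0.156. MEST was at 479 against 1429 CPM at E24 and 159 against 1061 at E37, with ratios of 0.335, 0.221, 0.230 and 0.150 in stage order. PEG3 had ratios of 0.294, 0.249, 0.279 and 0.196. PEG10 passed 2-fold downward from E28 on, and CDKN1C, at 1.14 at E24, was at 0.464, 0.420 and 0.379 thereafter. PLAGL1 passed at E31 and E37. NNAT was not called at any stage, with ratios of 0.864, 1.01, 0.841 and 0.585.

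In all, 3, 5, 6 and 6 of 8 members were 2-fold or more lower in PECAM1 barcodes. The shares over all genes were 14.2%, 18.3%, 15.2% and 20.8%. With at least 2 PECAM1 UMIs required, the ratios of DLK1, PEG3 and MEST were lower still, for example a log2 ratio of -3.54 for DLK1 at E28 against -2.57, and -3.79 for MEST against -2.18. Of the IGF genes, SHC1, an adaptor of growth factor receptors, was 3.75- to 4.79-fold higher in PECAM1 barcodes at the 4 stages and GRB14 was 22.8-fold higher at E37 (32.5 against 1.42 CPM). IRS1, a docking protein of the insulin and IGF1 receptors, was 6.23-fold lower at E37. GRB10 and its relative GRB14 were therefore both higher in E37 PECAM1 barcodes, at ratios of 5.17 and 22.8.

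SOX10 barcodes also had low levels of DLK1, PEG3 and PLAGL1. DLK1 was at 139 CPM in SOX10 barcodes against 817 in the rest at E28, 329.9 against 832 at E31 and 245 against 1664 at E37, ratios of 0.171, 0.397 and 0.147. PEG3 was at 0.278, 0.277 and 0.220 of its level in the rest, and PLAGL1 at 0.272, 0.365 and 0.191. CDKN1C passed at E28 (0.472) and MEST at E37 (0.350). Thus 4 of 7 measured members at E28, 3 of 8 at E31 and 4 of 8 at E37 were 2-fold or more lower. Over all genes the shares were high as well, at 28.2%, 25.3% and 21.4%. With equal weights or at matched depth the E31 count was 5. Without barcodes that held another of the 5 marker genes, DLK1 was lower still, at a log2 ratio of -5.05 at E28 against -2.55 with them. Of the 4 other crest and glial markers, 3 were higher at E28 and E31 and 4 at E37. Of 5 neural tube markers, SOX2 and FABP7, which glial cells of the crest also express, were higher at all 3 stages, and the summed level was 247 against 5.31 CPM at E28, 274 against 7.62 at E31 and 249.9 against 10.2 at E37. The other 3, SOX3, PAX6 and HES5, were at 0 UMIs in SOX10 barcodes and also in the rest, except for PAX6 at 0.0163 CPM there at E28. The part of cells with SOX2 and FABP7 in the ratios was not tested.

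WT1 barcodes made up 4.95%, 58.9%, 52.6% and 33.2% of the libraries and differed little from the rest in most members. At E24 CDKN1C was at 195 CPM in WT1 barcodes against 66.7 in the rest, a 2.93-fold higher level and the only member called at the main setting. Under 3 other settings a second one passed: DLK1, at a log2 ratio of 1.06 without the deepest barcodes and 1.05 with equal weights, and GRB10, at -1.44 with at least 2 WT1 UMIs. No member passed at E28 or E31. At E37 DLK1 was at 903 CPM against 1923, a ratio of 0.470, and was again the only one called. Over all genes, 9.05%, 10.8%, 9.36% and 8.21% passed 2-fold in either direction. DLK1 was above 1 at the first 3 stages, with ratios of 1.92, 1.22 and 1.46, but at matched depth its log2 ratio was -0.32 at E28 and -0.09 at E31, so that the direction at these 2 stages was not stable. All 5 podocyte markers were higher in WT1 barcodes at E28 and E31, with a summed level of 878 against 83.0 CPM at E28. At E37 podocyte, gonadal, coelomic and nephrogenic markers were each higher in 3 cases, with 1 nephrogenic marker lower, so WT1 did not mark 1 cell type.

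STAR barcodes had high DLK1 and PLAGL1 from E28 on. DLK1 was at 239 CPM against 215 at E24, 2471 against 694 at E28, 2253 against 745 at E31 and 3708 against 1363 at E37, ratios of 1.11, 3.56, 3.02 and 2.72. PLAGL1 was at 54.9 against 53.0 CPM at E24 and then at 248 against 84.9, 212 against 86.2 and 309.7 against 128, ratios of 1.04, 2.93, 2.46 and 2.42. At E37 PEG10 (2.74-fold), PEG3 (2.09-fold) and CDKN1C (2.01-fold) also passed. The counts of members 2-fold or more higher were 0, 2, 2 and 5 of 8 in stage order, beside 0.41%, 0.569%, 0.333% and 1.34% of all genes. CDKN1C at E37 lay just above 2-fold, and under 3 of the other settings tried the E37 count was 3. Without barcodes that held another of the 5 marker genes, 5 members passed in either direction at E28 (GRB10 among them, lower) and 4 at E31, and at matched depth 4 passed at E28. At E37 STAR barcodes held 22.0% of all DLK1 UMIs with 9.39% of all UMIs.

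The other 4 markers of steroid-producing cells were at low levels in these libraries. Their summed level in STAR barcodes was 0.192 against 0.899 CPM in the rest at E24, 4.35 against 1.83 at E28, 3.73 against 1.53 at E31 and 21.7 against 3.87 at E37. Most of it was INHA, an inhibin subunit, at 4.09 against 1.64 CPM at E28 (16 UMIs), 3.73 against 1.33 at E31 (14 UMIs) and 21.2 against 3.59 at E37 (80 UMIs), of which only the last had the 50 UMIs required. MC2R, the ACTH receptor of the adrenal cortex, was at 0 UMIs in STAR barcodes and in the rest at every stage. CYP17A1, an enzyme of androgen and cortisol synthesis, was at 0 to 1 UMI in STAR barcodes and at most at 0.247 CPM in the rest, too low to compare. STAR barcodes mostly held exactly 1 STAR UMI (90.1%, 83.3%, 89.5% and 71.1%). At E28 187 of 281 (66.5%), and at E31 211 of 325 (64.9%), also held WT1, beside 58.9% and 52.6% of all barcodes. The group is therefore named by its gene alone. At E37 only 2 STAR barcodes fell in the sympathoadrenal set described below, so the STAR group and that set shared few barcodes. The sympathoadrenal markers themselves were not absent from STAR barcodes. Their summed level at E37 was 251 CPM in STAR barcodes against 258 in the rest, with 2 of 4 markers lower by 2-fold or more and none higher. The part of cells with these markers in the STAR ratios was not tested.

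LHX9 barcodes had high DLK1 at E28 and E31 but not at E37. DLK1 was at 2568 CPM against 743 at E28 and 2979 against 797 at E31, 3.46-fold and 3.74-fold higher, and at 1081 against 1652 at E37, a ratio of 0.654. PLAGL1 was 2.19-fold and 2.43-fold higher at E28 and E31 and level at E37 (147 against 145 CPM). PEG10 was at 1.97, 2.09 and 0.876. The counts of members 2-fold or more higher were 2, 3 and 0 of 8, beside 0.836%, 0.316% and 1.72% of all genes. With at least 2 LHX9 UMIs or at matched depth 1 member passed at E37 in either direction. Of the other gonadal markers, none was 2-fold higher in LHX9 barcodes at E28 or E31 and 2 of 4 were at E37, and the summed gonadal level was 154 against 151 CPM at E28 and 122 against 39.1 at E37. Coelomic epithelial markers were higher too, 2 of 5 at E28, 1 at E31 and 4 at E37, with a summed level of 357 against 217 CPM, 309 against 203 and 478 against 119, and their part in the ratios was not tested. NR5A1, a factor of gonadal and adrenal steroid cells, was at 0 UMIs in LHX9 barcodes at all 3 stages, but only at 0.0994, 0.0701 and 0.198 CPM in the rest. Of the LHX9 barcodes, 85.4% at E28, 71.6% at E31 and 61.7% at E37 also held WT1. Among all barcodes WT1 was held by 58.9%, 52.6% and 33.2%.

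Barcodes were also sorted by panels of 5 marker genes (4 for the sympathoadrenal panel), none of them a member, and joined a panel with UMIs of at least 3 of its markers and of more than of any other panel. This gave 31 sets of at least 50 barcodes, 13 at E24, 5 at E28, 6 at E31 and 7 at E37. Only 32.0%, 45.7%, 37.4% and 23.3% of barcodes could be placed, so most of each library is not described by them. The panels are named for their markers.

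**Figure D3:**
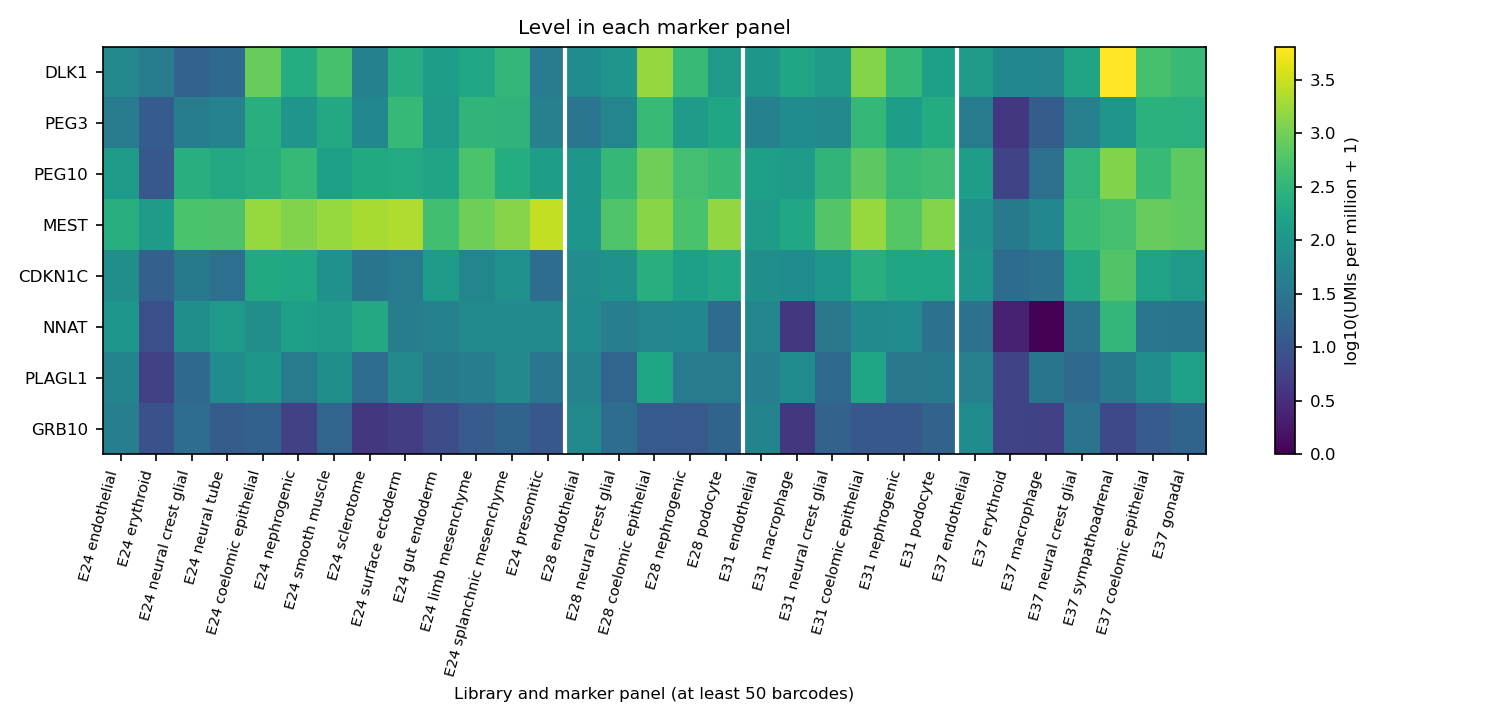
Level of each gene in each set of barcodes with a marker panel, as log10(CPM + 1), with white lines between the 4 libraries. The E37 sympathoadrenal set is the brightest for DLK1, at 6439 CPM, and GRB10 is brightest in the endothelial set of every library.

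DLK1 reached its highest level in the 110 sympathoadrenal barcodes at E37, which carry at least 3 of PHOX2A, DBH, CHGA and TH, genes of the developing adrenal medulla and sympathetic ganglia. It was at 6439 CPM there (6249 to 6633), 500.2 in the coelomic set, 369 in the gonadal set and 164 in the neural crest set of the same library. At equal depth 97.4% of the sympathoadrenal barcodes held DLK1. The share was 33.0% in coelomic, 30.5% in gonadal, 14.9% in neural crest and 7.15% in endothelial barcodes, and lowest in macrophage (5.56%) and red-cell ones (5.09%). TH was widespread in these libraries and is a weak member of that panel. The set held 6.82% of E37 DLK1 UMIs and 1.68% of all UMIs. At E24, E28 and E31 the coelomic epithelial set was highest, with DLK1 at 849, 1594 and 1261 CPM. When 2 markers sufficed, the highest set at E28 and E31 was instead that with smooth muscle markers, at 2580 and 2863 CPM. That smooth muscle set, under 50 barcodes when 3 markers were asked for, was then also highest at E28 and E31 for MEST (2055 and 1952 CPM), CDKN1C (353 and 388) and PLAGL1 (231 and 299.6).

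The same sympathoadrenal set was highest in E37 for PEG10, CDKN1C and NNAT. CDKN1C was at 600.0 CPM (543 to 661) there and at 196 in the neural crest set, the second highest. NNAT was at 336 CPM (294 to 383), 11.7 times the median set, with 29.9 in the coelomic set next and 0 UMIs in the macrophage set. PEG10 was at 1215 CPM, against 720.3 in the gonadal set. PLAGL1, PEG3 and GRB10 did not share this: they were at 34.1, 94.8 and 5.93 CPM in the sympathoadrenal barcodes. PLAGL1 was highest at 152 CPM in the 50 gonadal barcodes. With 2 markers the NNAT maximum at E37 moved to nephrogenic barcodes (119 CPM), and PLAGL1 and PEG3 were then highest in the sympathoadrenal set at 272 and 404 CPM, so these 3 depend on how many markers are asked for.

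At E24 the highest sets were presomitic barcodes for MEST and sclerotome barcodes for NNAT, both with markers of paraxial mesoderm. MEST was at 2892 CPM in presomitic barcodes (2836 to 2948), 2238 in surface ectoderm and 2025 in sclerotome, the forerunner of the vertebrae, and at 121 in red-cell barcodes. It was at 1548 CPM in podocyte barcodes at E28 and at 1657 in coelomic ones at E31. NNAT was at 196 CPM in sclerotome barcodes (185 to 208) and at 140 in nephrogenic ones at E24. PEG3 was highest in surface ectoderm (358 CPM) and limb mesenchyme (315) at E24, and PEG10 in limb mesenchyme (542). PLAGL1 was highest in the coelomic sets at E24, E28 and E31 (103, 173 and 176 CPM).

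GRB10 was highest in the endothelial set of all 4 libraries, at 41.7 (34.9 to 49.3), 64.0 (55.9 to 73.0), 51.2 (44.5 to 58.6) and 69.7 CPM (58.8 to 82.0). The neural crest set was second at E24, E28 and E37, at 22.1, 23.1 and 27.1 CPM, and at E31 the podocyte and neural crest sets were both at 15.2. With 2 markers, or with each barcode weighted equally, the endothelial set was again the highest in each library. DLK1 and MEST were below the median set in endothelial barcodes of each library: DLK1 was at 61.4, 69.2, 104 and 108 CPM there and MEST at 246, 98.7, 125 and 82.3. NNAT at E28 was highest in endothelial barcodes at 67.1 CPM, next to 58.4 in nephrogenic ones, but with 2 markers the sclerotome set was higher, at 81.5.

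Neighbouring stages could be compared within panels present in both libraries, so that barcodes with like markers are compared. Panels were counted where a member had at least 50 UMIs in the set with the higher level. At E28 against E24, DLK1 was higher in 4 of 4 panels but passed 2-fold in 1, neural crest. PEG10 was higher in 3 of 4 and passed 2-fold in 1, coelomic, with a ratio of 0.881 in endothelial barcodes. CDKN1C was at 2.63 in neural crest and 1.24 in coelomic barcodes, level in endothelial ones (0.984) and lower in nephrogenic ones (0.771, 0.709 to 0.840). NNAT was lower at E28 than at E24 in 4 of 4 panels, each with an interval below 1, such as 58.4 against 140 CPM in nephrogenic barcodes. It was lower again at E37 than at E31 in 3 of 3, by 2-fold or more in endothelial (25.6 against 55.8 CPM) and coelomic barcodes (29.9 against 62.3), while in neural crest ones (28.7 against 31.0) the interval of the ratio included 1. MEST was lower at E37 than at E31 in 4 of 4 panels, each with an interval below 1, among them 851.5 against 1657 CPM in coelomic barcodes. It was also lower at E37 in PECAM1, SOX10, STAR and LHX9 barcodes. In the larger group of WT1 barcodes MEST was higher at E37, at a ratio of 1.12 (1.10 to 1.14). PEG3 was lower at E37 in 3 of 3 panels.

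DLK1 showed opposite directions in the whole library and within the coelomic set. That set held 4009 of 59467 DLK1 UMIs at E31 and 937 of 63700 at E37. In coelomic barcodes it was at 849 CPM at E24, 1594 at E28, 1261 at E31 and 500.2 at E37, so the E37 level was 2.52-fold below that of E31, while the whole library was 1.92-fold above. DLK1 was also lower in macrophage barcodes at E37 (54.6 against 181 CPM), on 36 UMIs in 12 of 70 barcodes against 115 in 13 of 51. It was higher in neural crest barcodes (164 against 114) and level in endothelial ones (108 against 104). Among marker barcodes, DLK1 was higher at E37 than at E31 in STAR (ratio 1.65) and PECAM1 ones (1.26). It was lower in WT1 (0.942), SOX10 (0.743) and LHX9 ones (0.363). PLAGL1 also showed opposite directions. In coelomic barcodes PLAGL1 was at 72.6 CPM at E37 against 176 at E31, 2.43-fold lower, while the whole library was 1.56-fold higher. CDKN1C was lower in coelomic barcodes (153 against 255 CPM) and higher in neural crest ones (196 against 100.3). GRB10 was higher at E37 in both panels with enough UMIs, endothelial (69.7 against 51.2) and neural crest (27.1 against 15.2). Between E28 and E31 no member reached 2-fold in any of 5 panels.

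**Figure D4:**
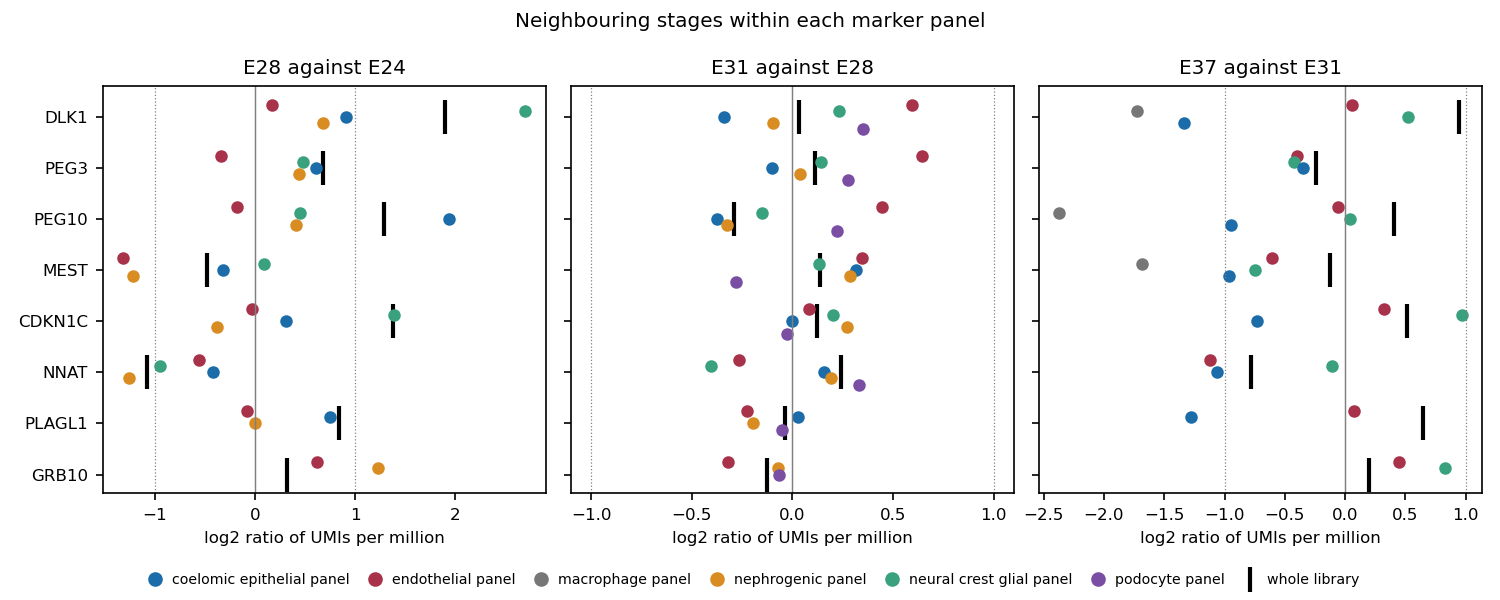
log2 ratio of CPM between neighbouring stages for each gene, within each marker panel found in both libraries (coloured points, at least 50 UMIs in the higher set) and over the whole library (black bars). Dotted lines mark 2-fold, and the 3 plots have different horizontal ranges. At E37 against E31 the DLK1 point for coelomic barcodes lies left of 0 at a 2.52-fold lower level, and the whole-library bar lies right of 0 at 1.92-fold higher.

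Since CDKN1C restrains the cell cycle, barcodes with UMIs of both MKI67 and TOP2A, made by dividing cells, were set against barcodes with neither. They numbered 4813 against 3075 at E24, 1635 against 2436 at E28, 2173 against 3190 at E31 and 930 against 3730 at E37. None of 8 members passed 2-fold at any stage, beside 4.64%, 10.6%, 7.93% and 9.49% of all genes in either direction. CDKN1C was lower in the MKI67 and TOP2A barcodes at each stage, at ratios of 0.637, 0.780, 0.808 and 0.844. DLK1 was lower by more, at 0.619, 0.560, 0.599 and 0.664. NNAT was higher at each stage (1.10, 1.42, 1.25 and 1.49), and GRB10 was higher at E28, E31 and E37 (1.54, 1.48 and 1.22), with an interval that included 1 at E24. The MKI67 and TOP2A barcodes were deeper, with a median of 15437 against 9642.5 UMIs at E28, and the part of depth in these ratios was not tested.

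**Figure D5:**
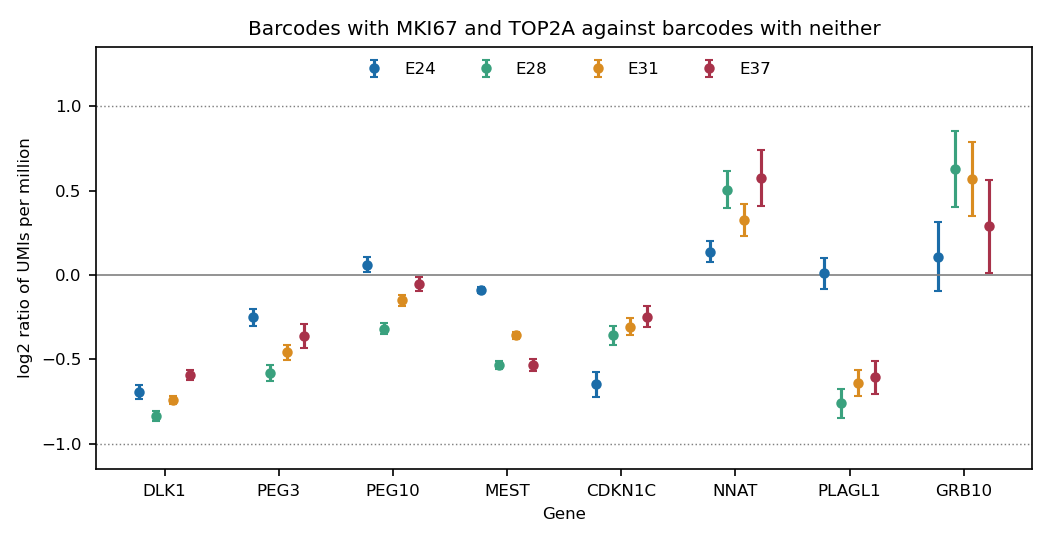
log2 ratio of CPM in barcodes with both MKI67 and TOP2A over barcodes with neither, for each gene and stage, with exact 95% intervals for counting error. Dotted lines mark 2-fold, which no point reaches. DLK1 lies below 0 at all 4 stages, at ratios of 0.560 to 0.664, and NNAT above 0, at 1.10 to 1.49.

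The likeness of the members to each other and to other genes was described over the 31 library and panel sets, as Pearson's r of log2(CPM + 1) centred within each library. Sets of 1 library share their embryo, depth and preparation, so these values are descriptions. GRB10 stood apart, with r between -0.23 (MEST) and 0.30 (NNAT) to the other members, while the other 7 had r from 0.37 (NNAT with PLAGL1) to 0.82 (PEG3 with PEG10) among themselves. DLK1 and CDKN1C were at 0.80. Of 9984 genes compared, those most like DLK1 were EDN3 (0.87), HAND2 (0.85) and PNOC (0.83). GRB10 was most like PRKCDBP (0.85), ECSCR (0.83) and HEG1 (0.81), the last a receptor of endothelium. PEG3 was nearest to EGFR (0.92), IKZF4 (0.89) and ID2 (0.89), and PLAGL1 to MEIS1 (0.87), BCL2 (0.85) and TRANK1 (0.85). PEG10 was nearest to LDOC1 (0.94), SRP14 (0.94) and UBQLN2 (0.94), and LDOC1, like PEG10, is a gene of retrotransposon origin. MEST was nearest to MXRA8 (0.90), EPHB6 (0.89) and CPE (0.88), NNAT to TSC22D1 (0.92), APBA2 (0.91) and PFDN4 (0.90), and CDKN1C to ZFHX2 (0.83), KMT2C (0.82) and DLK1 (0.80).

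Imprinted genes lie in clusters, and neighbours of the members were taken from RefSeq's annotation of the T2T-MFA8v1.1 assembly, which need not be the one used by the authors. SGCE, next to PEG10 and known to share its imprinting, was at 25.6, 31.6, 31.5 and 44.0 CPM in stage order and had r = 0.88 with PEG10 over the 31 sets. PPP1R9A, further along, had r = 0.76. PHLDA2, near CDKN1C, had r = 0.42 and was at 6.72, 20.7, 15.9 and 6.01 CPM, so its E37 level was low where that of CDKN1C was highest. RTL1, near DLK1, was at 0.00867 CPM at E24 and 0.0248 at E37, both under the limit of 3 UMIs, and at 0 at E28 and E31, and USP29, near PEG3, was at 0 in all 4 libraries.

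In that annotation MEST overlaps COPG2 and NNAT overlaps BLCAP. No strand setting of the counting is known from the sources used here, so reads in these overlaps cannot be told apart. BLCAP was at 38.4, 39.7, 40.7 and 35.6 CPM by stage, a narrow range beside the 115 to 37.8 of NNAT, and had r = 0.28 with it. BLCAP was 2.51-, 2.32-, 2.64- and 2.24-fold higher in PECAM1 barcodes, where NNAT was not called. COPG2 was at 20.2, 26.2, 23.0 and 21.6 CPM and had r = 0.47 with MEST.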

How the data were processed

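Droplet single-cell RNA-seq of transcript 3′ ends was used. The values are UMI counts per gene and barcode, deposited by the authors as filtered matrices that hold their called cells. The submitters' processing notes name Cell Ranger 2.1.0. No genome build is given in the sources used here, and the protocols name both v2 chemistry and v3 kits. A row with no gene name held 0% of counts. The other values in the files are gene names and barcodes, as deposited.

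Counts were summed over barcodes and scaled to their total (CPM). No barcode was left out and no doublet caller was run, and an alternative left out barcodes above the 95th percentile of UMIs. Levels carry exact Poisson, ratios exact conditional binomial and shares exact Clopper-Pearson 95% intervals. Sums of 0 entered log2 ratios as 0.5 UMIs. Shares at 2000 UMIs are expected values from the hypergeometric distribution, and every barcode was deeper than that. Gene likeness was ranked among genes with at least 500 UMIs. No test was run, since each stage has 1 library. The interval, ratio and thinning functions were tested on simulated data. Python 3.11.15, numpy 2.4.6, scipy 1.17.1, pandas 2.3.3 and matplotlib 3.10.9 were used.

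The plan was to name all members in each comparison, the highest and lowest panels of each member and the 3 genes most like each. Up to 4 genes per list and direction past 2-fold were also to be named. The text gives a part of these, so a gene left unnamed in a comparison may still have differed. The 21 marker panels and 3 lists (other imprinted genes, IGF signalling, cell cycle) used 6 aliases found by RefSeq gene ID. The sympathoadrenal panel used 4 markers, and 1 further marker planned for it is not reported here. Members and lists were chosen with earlier results of these data known. Of the 12 cell cycle genes, CDKN1A and CDKN2C passed 2-fold upward at E28 against E24 (2.35 and 2.27) and at E37 against E31 (3.76 and 5.13), and CDKN1A passed downward at E31 against E28 (2.43-fold lower). No genome or sequence table came with the files, so no sequences are shown.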

Additional observations from a re-analysis of the deposited data

Results flagged for a closer look

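For 5 pairs of a gene and a marker, ratios lay on opposite sides of 1 at different stages, with counting intervals clear of 1 on both sides and at least 1 of them past 2-fold. With 1 library per stage, the difference between stages was not tested for any of them. The values are log2 ratios of marker barcodes over the rest, in stage order. DLK1 in WT1 barcodes was at 0.94, 0.28, 0.55 and -1.09 from E24 to E37. DLK1 in LHX9 barcodes was at 1.79, 1.90 and -0.61 at E28, E31 and E37, and PEG10 in LHX9 barcodes was at 0.98, 1.07 and -0.19. CDKN1C was at 0.19 in PECAM1 barcodes at E24 and then at -1.11, -1.25 and -1.40. In WT1 barcodes CDKN1C was at 1.55, 0.44 and 0.52 at the first 3 stages and at -0.48 at E37.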

How the results depend on the processing

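No paired analysis was possible because each stage is 1 library and the labels carry no shared replicate numbers. The counts of members past 2-fold were recomputed 125 times under other settings. Of these, 112 stayed within 1.5 times the main count and 13 moved. A count does not record which members passed or in which direction, so an unchanged count can hold other members. For WT1 at E24 the count was 2 against 1 without barcodes above the 95th percentile of UMIs, with each barcode weighted equally and with at least 2 WT1 UMIs. For SOX10 at E31 it was 5 against 3 with equal weights and at matched depth. For STAR it was 5 against 2 at E28 and 4 against 2 at E31 without barcodes holding another marker gene, and 4 at E28 at matched depth. At E37 it was 3 against 5 without the deepest barcodes, with equal weights and at matched depth. For LHX9 at E37 it was 1 against 0 with at least 2 LHX9 UMIs (DLK1) and at matched depth (NNAT). Of 1064 single values recomputed, mostly member log2 ratios, 423 moved and 641 stayed the same. A ratio was counted as moved when it left the 95% counting interval of the main setting. Of 1000 member log2 ratios recomputed, 43 shifted by over 1.5 times, many of them ratios already past 2-fold. There were 42 that changed sign, and none of these 42 was past 2-fold in the main setting. A marker threshold of 2 UMIs was not run where it left under 50 barcodes, as for SOX10 at E28 and E31, STAR before E37 and LHX9 at E28 and E31. The matched-depth setting, the ratios within panels and the ratios without sympathoadrenal or STAR barcodes were added after the data were seen. Depth limits GRB10 most: it had 583 to 1272 UMIs per library, and 11 to 60 in the SOX10 and LHX9 groups.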
